A study of Homo sapiens with 21 samples.

Results

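The T-box family genes TBX2, TBX3, TBX4, TBX5, TBX18 and TBX20 were followed through the accessible sites that lie nearest to them. Members were all consensus ATAC-seq sites whose nearest annotated gene carried exactly one of these 6 names, which gave 114 of the 367900 sites in the series. TBX2 had 4 sites, TBX3 16, TBX4 9, TBX5 9, TBX18 62 and TBX20 14. A low-count filter left 112 members, and the 2 removed lay near TBX4 and TBX18. ATAC-seq uses the Tn5 transposase to cut open DNA, so reads pile up where chromatin is accessible. The cells were SK-N-BE(2), an established human neuroblastoma line, read 72 h after lentiviral delivery of short hairpin RNAs (shRNAs). Groups of 3 biological replicates each were Control, for which the study describes a non-silencing shRNA, shARID1A.2 and shARID1A.4 against ARID1A, shARID1B.2 and shARID1B.3 against ARID1B, and the combinations shARID1A/B.2.3 and shARID1A/B.4.2 against both genes. All 7 groups, Control included, thus carried a lentiviral shRNA construct. ARID1A and ARID1B are mutually exclusive subunits of BAF, a complex that uses ATP to move nucleosomes, and the design asks what their loss, alone and together, does to open chromatin. A site takes the name of the nearest transcription start site (TSS) and need not act on that gene.

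T-box proteins are transcription factors that bind DNA through a shared domain, the T-box, and pattern organs in the embryo. TBX2 and TBX3 are close relatives that act mostly as repressors, hold back cyclin-dependent kinase inhibitors such as p21 and keep cells dividing. In adrenergic neuroblastoma, TBX2 belongs to the core regulatory circuit of transcription factors that hold the cell state, beside HAND2, GATA3 and ISL1, and it lies on the long arm of chromosome 17, which is often gained in these tumours. TBX4 and TBX5 direct hindlimb and lung, and forelimb and heart, respectively. TBX18 marks the sinus node, the epicardium and the ureter mesenchyme, and TBX20 is needed for the heart and for cranial motor neurons.

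The sequences below are the central 300 bases of 5 member sites, written on the plus strand of GRCh38, and the 250 bases before the TBX20 start on its own minus strand. The sites 15.1 kb upstream of TBX2, 76.4 kb upstream of TBX3, 233.7 kb upstream of TBX18 and 122 kb downstream of the TBX5 start are shown because they had the smallest p-value of their gene after combined silencing. The site 164 kb downstream of the TBX5 start is shown because the combinations lay on opposite sides of Control there. The TBX20 promoter is shown as a start region that rose slightly, a call that not all library scalings kept. Capitals mark exact matches, on either strand, to 5 motifs, namely the T-box half-site GGTGTGA, the AP-1 site TGANTCA, the GATA site AGATAA, the E-box CATCTG of the HAND and TWIST type and the E-box CAGCTG. Their positions are chr17:61384640-61384939, chr12:114760374-114760673, chr6:84998195-84998494, chr12:114283998-114284297, chr12:114241973-114242272 and, for the TBX20 promoter of the RefSeq table (GRCh38.p14), chr7:35254101-35254350.
TBX2, 15.1 kb upstream: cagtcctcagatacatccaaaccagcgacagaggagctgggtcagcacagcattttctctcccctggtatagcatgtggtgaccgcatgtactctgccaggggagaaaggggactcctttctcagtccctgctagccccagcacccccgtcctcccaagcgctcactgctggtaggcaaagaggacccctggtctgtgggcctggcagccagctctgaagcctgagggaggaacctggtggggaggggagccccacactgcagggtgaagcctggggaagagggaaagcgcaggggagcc
TBX3, 76.4 kb upstream: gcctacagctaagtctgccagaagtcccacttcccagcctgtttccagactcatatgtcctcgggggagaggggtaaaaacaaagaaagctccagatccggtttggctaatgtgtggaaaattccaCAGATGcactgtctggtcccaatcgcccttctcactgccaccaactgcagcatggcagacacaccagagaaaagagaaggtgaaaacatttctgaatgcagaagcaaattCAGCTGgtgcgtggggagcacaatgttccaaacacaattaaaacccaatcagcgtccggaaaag
TBX18, 233.7 kb upstream: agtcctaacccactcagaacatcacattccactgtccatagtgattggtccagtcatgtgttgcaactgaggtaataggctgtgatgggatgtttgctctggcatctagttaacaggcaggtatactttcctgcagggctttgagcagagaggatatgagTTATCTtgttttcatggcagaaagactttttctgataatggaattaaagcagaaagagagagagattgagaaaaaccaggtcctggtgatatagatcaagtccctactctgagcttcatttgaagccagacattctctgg
TBX5, 122 kb downstream: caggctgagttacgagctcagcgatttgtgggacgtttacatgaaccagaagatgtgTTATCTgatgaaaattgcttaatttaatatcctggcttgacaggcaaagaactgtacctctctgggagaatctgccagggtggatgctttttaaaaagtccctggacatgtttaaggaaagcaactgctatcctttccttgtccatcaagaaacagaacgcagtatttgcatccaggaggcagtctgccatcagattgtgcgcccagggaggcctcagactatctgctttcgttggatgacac
TBX5, 164 kb downstream: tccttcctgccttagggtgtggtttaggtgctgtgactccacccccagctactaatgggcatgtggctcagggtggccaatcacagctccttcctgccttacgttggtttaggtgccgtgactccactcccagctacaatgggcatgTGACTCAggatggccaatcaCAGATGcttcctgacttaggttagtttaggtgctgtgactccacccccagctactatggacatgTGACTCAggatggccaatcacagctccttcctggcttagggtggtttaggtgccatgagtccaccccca
TBX20 promoter: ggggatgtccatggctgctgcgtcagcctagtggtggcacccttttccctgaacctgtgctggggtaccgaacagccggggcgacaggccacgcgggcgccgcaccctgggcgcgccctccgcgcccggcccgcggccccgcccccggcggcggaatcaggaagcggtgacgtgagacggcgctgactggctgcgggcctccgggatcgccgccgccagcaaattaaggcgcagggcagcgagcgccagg

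In the TBX3 window the capitals are an E-box of each type, in the TBX18 window and the window 122 kb from TBX5 a GATA match, and in the window 164 kb from TBX5 a pair of AP-1 matches with an E-box of the HAND and TWIST type between them. The TBX2 window and the TBX20 promoter hold none of the 5 motifs. The window 164 kb from TBX5 repeats itself: set against its own sequence at a shift of 84 bases, 73.6% of its bases were equal, while the next highest of the 112 member windows reached 43.1% and their median was 35.9%. How reads that match several places were aligned is not given in the sources used here. TBX4, TBX5, TBX18 and TBX20 were matched in the RefSeq promoters, and TBX2 and TBX3 were not.

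Over all 112 tested windows, 11.6% held the AP-1 match (10.9% of the windows of all tested sites), 17.9% the GATA match (17%), 25.9% the CATCTG E-box (23%), 20.5% the CAGCTG E-box (17.6%) and 0.893% the T-box half-site (5.09%). The T-box half-site was found in 1 member window of 112, and in 18177 of 357024 windows overall. Median GC content was 47.5% for members and 46.7% for all tested sites. A match describes the letters of these windows and not the binding of a factor.

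Libraries held 16140029 to 44472230 reads in sites, and every replicate pair differed by more than counting noise (chi-square per degree of freedom 1.08 to 2.51). The 4 deepest libraries were replicates 1 and 2 of shARID1B.3 and of shARID1A/B.2.3. Levels are given as CPM, read counts scaled to the TMM-adjusted library total, with the SD over 3 libraries. Sites are called closed or opened where the edgeR quasi-likelihood test over all 357029 tested sites gave a fall or a rise at a Benjamini-Hochberg false discovery rate (FDR) under 0.01, and changes are log2 with their standard error (SE). An open site in fewer cells and a less open site in each cell cannot be told apart. Among adrenergic markers, HAND2 (43.9 CPM in Control), PHOX2A (24.0), DBH (10.3) and TH (2.43) had a tested promoter site, and GATA3, CHGB and ISL1 had none. Among markers of blood, liver, mesenchymal and epithelial cells, FOSL2 had one (72.1 CPM), and PTPRC, CD3E, ALB, PRRX1, COL1A1 and EPCAM had none.

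Most member sites were far from genes. Of the 114 members, 81 were intergenic (71.1%, against 48.9% of all sites), 26 intronic, 4 at a promoter, 2 exonic and 1 at a transcription end. Their median length was 739.5 bases, and their median Control level was 0.977 CPM, close to the 1.04 CPM of all tested sites. TBX18 supplied more than any other gene, with 61 tested sites from 312.7 kb upstream to 36 kb downstream and a median of 0.838 CPM in Control. Only 9 of these reached 2 CPM in Control, compared with 8 of 16 for TBX3, 4 of 8 for TBX4, 5 of 14 for TBX20, 3 of 9 for TBX5 and 2 of 4 for TBX2.

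Combined silencing, averaged over both combinations against Control, closed 18 of the 112 tested members (16.1%) and opened 4 (3.57%), or 2 without Control replicate 2. Over all tested sites 10.3% closed and 3.43% opened. The median log2 change was 0.05 over members and 0.03 over all tested sites, so the closed sites were a minority among members whose middle did not fall. Without the many sites of TBX18, 13 of 51 members closed and 2 opened. The counts differed with the level: 14 of the 31 members with at least 2 CPM in Control closed (45.2%), where 26.9% of all such sites did, and 4 of the 81 weaker members closed (4.94%), where 3.9% did. The level was taken from the same Control libraries as the fall, which favours closed calls at sites that happened to read high in Control. These shares describe a list chosen with earlier results known, and no test of the list was made.

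The closed sites lay between 4.8 and 233.7 kb from the TSS, with a median of 71.65 kb. Their falls ranged from -0.28 to -2.03 on the log2 scale with a median of -0.95, and 8 fell by at least 1. At 16 of the 18, all 6 combination libraries were below all 3 Control libraries, the exceptions being 19.7 kb upstream of TBX3 and 35.4 kb downstream of the TBX4 start. The same libraries gave the call, so this separation adds no support, and its share over all closed sites was not counted. Every one of the 6 genes had a closed site, but the shares differed. Closed were 5 of 16 tested sites at TBX3, 3 of 8 at TBX4 and 2 of 9 at TBX5. At TBX20 2 of 14 closed, at TBX2 1 of 4 and at TBX18 5 of 61. The TBX18 share (8.2%) was below the 10.3% of all tested sites that closed. None of the 6 sites within 1 kb of a start site closed in the edgeR test, and none had a fall at an unadjusted p under 0.05 (0 of 6), whereas 3 of them opened. Among all 17022 tested sites within 1 kb of a TSS, 3.72% closed and 31.8% opened, and 1149 had a fall at an unadjusted p under 0.05. The closed member windows had a median GC content of 47.8% and the 4 opened ones 68.7%, with medians of 5.5 and 32.5 CpG dinucleotides. The motif matches were counted in closed and uncalled members, with AP-1 in 3 of 18 and 10 of 90, GATA in 3 and 17, CATCTG in 5 and 24 and CAGCTG in 4 and 19. Over all closed and all uncalled sites the shares were 14.3% and 10.7% for AP-1, 24.7% and 16.5% for GATA, 33% and 22.2% for CATCTG and 20.2% and 17.4% for CAGCTG, and 18 closed members are too few to set against these.

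**Figure D1:**
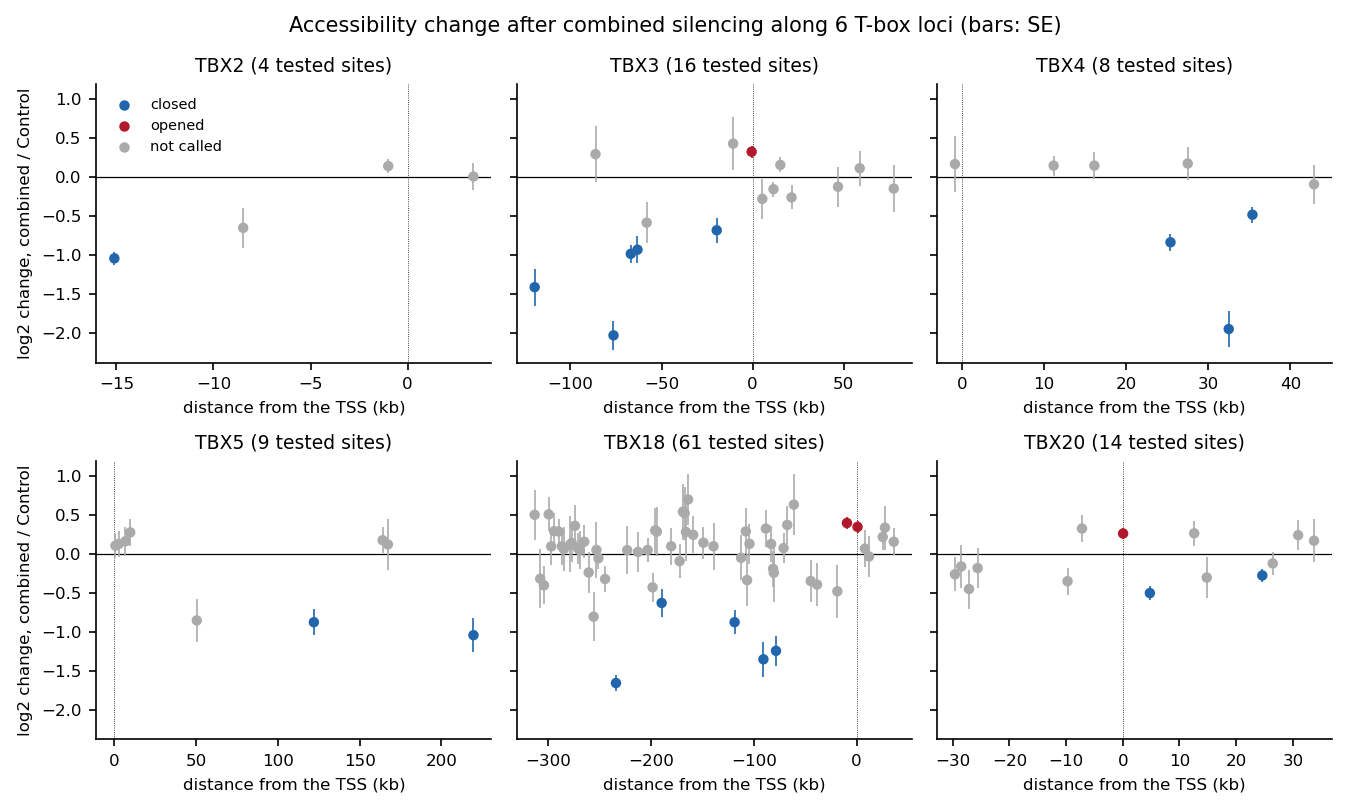
Log2 change after combined silencing against Control (y axis, bars are SE) for each tested member by its distance from the TSS in kb (x axis), 1 panel per gene, with closed sites in blue, opened in red and others in grey. The 18 closed sites lie 4.8 to 233.7 kb from the start sites, and 3 of the 4 opened sites lie within 1 kb of one.

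The TBX2 locus (chr17:61399843-61409466, plus strand, GENCODE) had a start site and an upstream site of similar total CPM in Control, and the latter was the one called. The start site is the longer, at 3987 bases against 2739. Per kb it stood near the median of promoter sites (6.4 against 6.46 CPM). The upstream site (chr17:61383421-61386159) lies 15.1 kb before TBX2, in an intron of the neighbouring gene BCAS3. Control libraries gave 26.8, 22.0 and 27.3 CPM, shARID1A/B.2.3 11.8, 9.73 and 12.2, and shARID1A/B.4.2 14.6, 12.8 and 13.5. All 6 combination libraries were thus below the lowest Control library, with a log2 change of -1.04 (SE 0.09, FDR 3.69e-18). Control averaged 25.3 ± 2.92 CPM (SD, n = 3), and the single-shRNA means lay between it and the combinations: shARID1A.2 had 19.3 ± 1.5, shARID1A.4 18.5 ± 0.384, shARID1B.2 20.1 ± 2.51 and shARID1B.3 15.2 ± 1.55. This site closed after ARID1A silencing (-0.42, SE 0.09, FDR 1.24e-04) and after ARID1B silencing (-0.53, SE 0.09, FDR 1.20e-06), and the combinations were lower than the single-shRNA groups (-0.56, SE 0.07, FDR 4.50e-11).

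The TBX2 start site (chr17:61396906-61400892, 1 kb upstream, overlapping the first exon and the antisense gene TBX2-AS1) did not pass the test. Control libraries gave 26.4, 21.3 and 28.8 CPM, shARID1A/B.2.3 27.4, 20.8 and 26.1, and shARID1A/B.4.2 33.4, 29.8 and 33.3. The first combination overlapped Control and every library of the second lay above it, and the combinations differed from each other (-0.38, SE 0.10, FDR 0.00482). The averaged change was 0.14 (SE 0.09, FDR 0.279), and its sign turned with promoter-site scaling (-0.09) and with abundance-trended offsets (-0.01). The remaining TBX2 sites, 8.5 kb upstream in a BCAS3 intron (-0.65, SE 0.26, FDR 0.0668) and 3.4 kb downstream in an intron of TBX2 (0.01, SE 0.18, FDR 0.983), were weaker, at 0.991 and 1.77 CPM in Control, and were not called.

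TBX3, the closest relative of TBX2 in the family, had the largest fall of all members. The site 76.4 kb upstream (chr12:114760237-114760812), annotated as intergenic by the authors and inside an intron of TBX3-AS1 in GENCODE, gave 3.42, 2.71 and 3.49 CPM in Control. It gave 0.985, 0.581 and 1.01 CPM with shARID1A/B.2.3, and 0.717, 0.828 and 0.696 with shARID1A/B.4.2. The groups were far apart, the log2 change was -2.03 (SE 0.19, FDR 7.23e-16), and the mean level fell to 0.246 of Control in the fit. Here each of the 4 single shRNAs closed the site, with 1.32 ± 0.457 and 1.14 ± 0.31 CPM for the ARID1A shRNAs and 1.57 ± 0.396 and 2.02 ± 0.443 for the ARID1B shRNAs (SD, n = 3 each). The ARID1A change was -1.40 (SE 0.18, FDR 1.77e-09) and the ARID1B change -0.83 (SE 0.17, FDR 1.19e-04), and their difference did not pass the test (-0.57, SE 0.17, FDR 0.0201).

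The other closed TBX3 sites lay on the same upstream side, at 119.6, 66.9, 63.2 and 19.7 kb, with changes of -1.41, -0.98, -0.93 and -0.68. The farthest (chr12:114803578-114804019) gave 1.78, 1.6 and 1.52 CPM in Control, 0.854, 0.418 and 1.14 with shARID1A/B.2.3 and 0.493, 0.322 and 0.696 with shARID1A/B.4.2, so that all combination libraries were below Control (SE 0.24, FDR 1.04e-06). The one 63.2 kb upstream (chr12:114747046-114747670) fell from 2.41 ± 0.557 CPM to 1.2 ± 0.0721 and 1.33 ± 0.178 (SD, n = 3 each, FDR 8.25e-06). At 19.7 kb (chr12:114703075-114704653) the Control libraries spread from 2.1 to 4.05 CPM and overlapped the combinations at 1.67 to 2.41 (FDR 5.96e-04). The strongest of these sites, 66.9 kb upstream (chr12:114750150-114751896), is a site at which the genes differed. Control gave 8.08, 8.59 and 9.98 CPM, both ARID1A shRNAs lay below all of these (5.12 to 6.58 CPM), shARID1B.2 did so too at 6.3, 6.32 and 8.05, and shARID1B.3 overlapped Control at 8.34, 8.71 and 8.02. Over the shRNAs of each gene, ARID1A silencing lowered it more than ARID1B silencing (-0.34, SE 0.09, FDR 0.0087), and the combinations went lower still, to 4.67 ± 0.766 and 4.44 ± 0.736 CPM (SD, n = 3 each). On the downstream side, the sites 15.2 kb (0.16, FDR 0.284, or -0.07 with promoter-site scaling) and 21.4 kb (-0.26, FDR 0.274) from the start were not called against Control, although at the latter the combinations were below the single-shRNA groups (-0.40, SE 0.11, FDR 0.00502).

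TBX4, a neighbour of TBX2 on the same chromosome, closed at the end of its gene body, while the site nearest to its start carried almost no signal. That site (chr17:61450816-61451065) does not reach the GENCODE start at 61452404. The site at the transcription end (chr17:61484046-61484494, 32.5 kb from the start, overlapping the last exon) gave 1.73, 1.27 and 2.81 CPM in Control. With shARID1A/B.2.3 it gave 0.525, 0.348 and 0.308 CPM and with shARID1A/B.4.2 0.851, 0.598 and 0.464, all below Control, a log2 change of -1.94 (SE 0.23, FDR 2.10e-11). The ARID1B shRNAs disagreed, since shARID1B.3 gave 0.726, 0.722 and 0.42 CPM and shARID1B.2 overlapped Control at 1.8, 2.93 and 1.79, a difference between them of 1.72 (FDR 6.89e-08). The sites 25.4 kb (an intron, -0.83, SE 0.11, FDR 1.56e-09) and 35.4 kb (beyond the gene, -0.48, SE 0.10, FDR 1.95e-04) closed less. The latter, the strongest TBX4 site at 9.29 CPM in Control, was lower in shARID1A/B.4.2 (5.75 ± 0.245 CPM, FDR 1.14e-05) and not called with shARID1A/B.2.3 (7.74 ± 1.17 CPM, FDR 0.0991, SD over n = 3). The difference between the combinations did not pass the test there (FDR 0.0196).

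TBX5 had no site above 2.74 CPM in Control. Of its 9 sites, 2 intergenic ones beyond the 3′ end of the gene closed. The nearer (chr12:114283714-114284582, 122 kb from the start) gave 2.74, 2.59 and 2.89 CPM in Control, 1.67, 1.44 and 1.63 with shARID1A/B.2.3 and 1.48, 1.7 and 1.07 with shARID1A/B.4.2. The groups did not overlap, and the change was -0.88 (SE 0.16, FDR 9.74e-06). The farther, at 219.6 kb, changed by -1.04 (SE 0.21, FDR 7.01e-05). Both closed after ARID1A silencing (-0.64, FDR 0.00326, and -0.97, FDR 7.87e-04), and after ARID1B silencing the changes were -0.24 (FDR 0.394) and -0.36 (FDR 0.317).

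Another distal TBX5 site differed by shRNA. At 164 kb from the start (chr12:114241735-114242511, overlapping an exon of LINC02459), the site with the repeated sequence shown above, Control gave 2.41, 1.77 and 2.08 CPM. It was high with shARID1A.2 (5.43, 3.9 and 5.03 CPM) and shARID1A/B.2.3 (4.3, 3.16 and 4.31), which by their labels share an ARID1A shRNA. It was low with shARID1B.2 (1.33, 1.35 and 1.24) and shARID1A/B.4.2 (1.12, 1.43 and 1.72), which by their labels share an ARID1B shRNA. Values with shARID1A.4 (3.02, 3.19 and 2.0) and shARID1B.3 (2.18, 2.7 and 2.31) overlapped Control. The averaged combined change was therefore 0.17 (SE 0.17, FDR 0.547, or -0.06 with promoter-site scaling), while shARID1A/B.2.3 was higher than Control (0.89, SE 0.17, FDR 1.66e-05), shARID1A/B.4.2 measured -0.55 (SE 0.21, FDR 0.0689), and the combinations differed by 1.44 (SE 0.18, FDR 2.92e-09). ARID1A and ARID1B silencing also differed here (1.04, SE 0.13, FDR 1.96e-09). Whether reads placed on the repeat play a part was not tested.

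TBX18, expressed in mesenchymal and sinus node lineages, had the member with the smallest p-value of all. The intergenic site 233.7 kb upstream (chr6:84997589-84999101) gave 12.7, 15.2 and 12.4 CPM in Control. It gave 3.84, 5.2 and 3.87 CPM with shARID1A/B.2.3 and 4.7, 3.96 and 3.76 with shARID1A/B.4.2. The combinations differed from each other by 0.08 (SE 0.14, FDR 0.79), the fitted level was 0.317 of Control, and the change was -1.66 (SE 0.10, FDR 9.20e-25). Every single-shRNA library was also below every Control library, with means of 8.78 ± 1.33 and 5.92 ± 0.639 CPM in the ARID1A groups (shARID1A.2 first) and 10.3 ± 0.579 and 6.65 ± 0.398 in the ARID1B groups (shARID1B.2 first, SD, n = 3 each). The shRNAs of each gene differed from each other (0.57, FDR 0.00201 for ARID1A, and 0.63, FDR 4.87e-05 for ARID1B).

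Closer sites of TBX18 closed too, at 189.4 kb (-0.63), 118.5 kb (-0.88), 90.5 kb (-1.35) and 78.3 kb (-1.24) upstream. The site 78.3 kb upstream (chr6:84842686-84843231), whose window held 2 CAGCTG E-boxes, gave 2.31, 2.3 and 2.16 CPM in Control. It fell to 1.18, 1.58 and 1.06 CPM with shARID1A/B.2.3 and further, to 0.762, 0.69 and 0.603, with shARID1A/B.4.2, although the difference between the combinations did not pass the test (0.93, SE 0.26, FDR 0.0108). At 118.5 kb the order was the other way, with 1.29 ± 0.282 CPM for shARID1A/B.2.3 and 2.2 ± 0.0538 for shARID1A/B.4.2 (SD, n = 3 each; difference -0.72, FDR 0.00912), and only the shARID1B.3 libraries of the single-shRNA groups were called (1.44 ± 0.0663 CPM, against 3.17 ± 0.818 in Control). The site 90.5 kb upstream (chr6:84854978-84855359) gave 1.35, 1.93 and 1.28 CPM in Control and closed with each of the 4 single shRNAs, whose means ran from 0.534 ± 0.197 to 0.794 ± 0.144, and in the combinations, at 0.476 ± 0.16 and 0.701 ± 0.0325 (SD, n = 3 each). The mildest of the closed sites, 189.4 kb upstream (chr6:84953471-84954537), gave 2.12, 2.3 and 2.0 CPM in Control, and 1.16 to 1.84 over the combination libraries (SE 0.18, FDR 0.00576). Most tested TBX18 sites were not called: 54 of 61, with changes from -0.81 to 0.70.

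In the average of both combinations, TBX18 was also the only one of the 6 genes with an opened site more than 1 kb from its start. The intergenic site 9.4 kb upstream (chr6:84772947-84775188) gave 21.2, 21.1 and 20.9 CPM in Control, 26.6, 26.7 and 26.0 with shARID1A/B.2.3 and 27.8, 28.8 and 30.3 with shARID1A/B.4.2. The change was 0.39 (SE 0.08, FDR 3.43e-05). The groups did not overlap, but the rule for naming the largest rises required this, so it adds no support. With promoter-site scaling the change was 0.16 (FDR 0.0777).

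TBX20, a cardiac and motor neuron factor, closed modestly inside its gene body. In its second intron, 4.8 kb from the start (chr7:35248574-35250076), Control gave 13.8, 14.0 and 15 CPM, and the 6 combination libraries ranged from 9.06 to 11.4. All combination libraries were lower than Control, with a change of -0.50 (SE 0.09, FDR 3.98e-06). The ARID1A shRNAs disagreed at this site, with 9.45 ± 0.561 CPM for shARID1A.2 and 15 ± 1.05 for shARID1A.4 (SD, n = 3 each; difference -0.66, FDR 3.80e-06). The site 24.6 kb from the start, in another intron, fell by the least of all closed sites, from 20.6 ± 0.827 CPM to 17.3 ± 1.34 and 16.7 ± 0.625 (-0.28, SE 0.08, FDR 0.00619).

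Next to it, 26.5 kb from the TBX20 start (chr7:35227428-35227865), lay a weaker intronic site at which the shRNAs parted, as they did 164 kb from TBX5. Control gave 2.55, 2.51 and 2.37 CPM. Values were higher with shARID1B.2 (3.46, 3.27 and 3.4) and ran from 2.55 to 3.64 with shARID1A/B.4.2, and they were lower with shARID1B.3 (1.79, 1.89 and 1.6) and shARID1A/B.2.3 (1.64, 1.53 and 1.67). The combinations again differed (-1.0, SE 0.17, FDR 7.10e-06), and so did the ARID1B shRNAs (0.93, SE 0.17, FDR 1.33e-05). Against Control, shARID1A/B.2.3 was called (-0.62, SE 0.18, FDR 0.00587), shARID1A/B.4.2 was not (0.37, SE 0.17, FDR 0.127), and the average was -0.12 (SE 0.15, FDR 0.641).

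**Figure D2:**
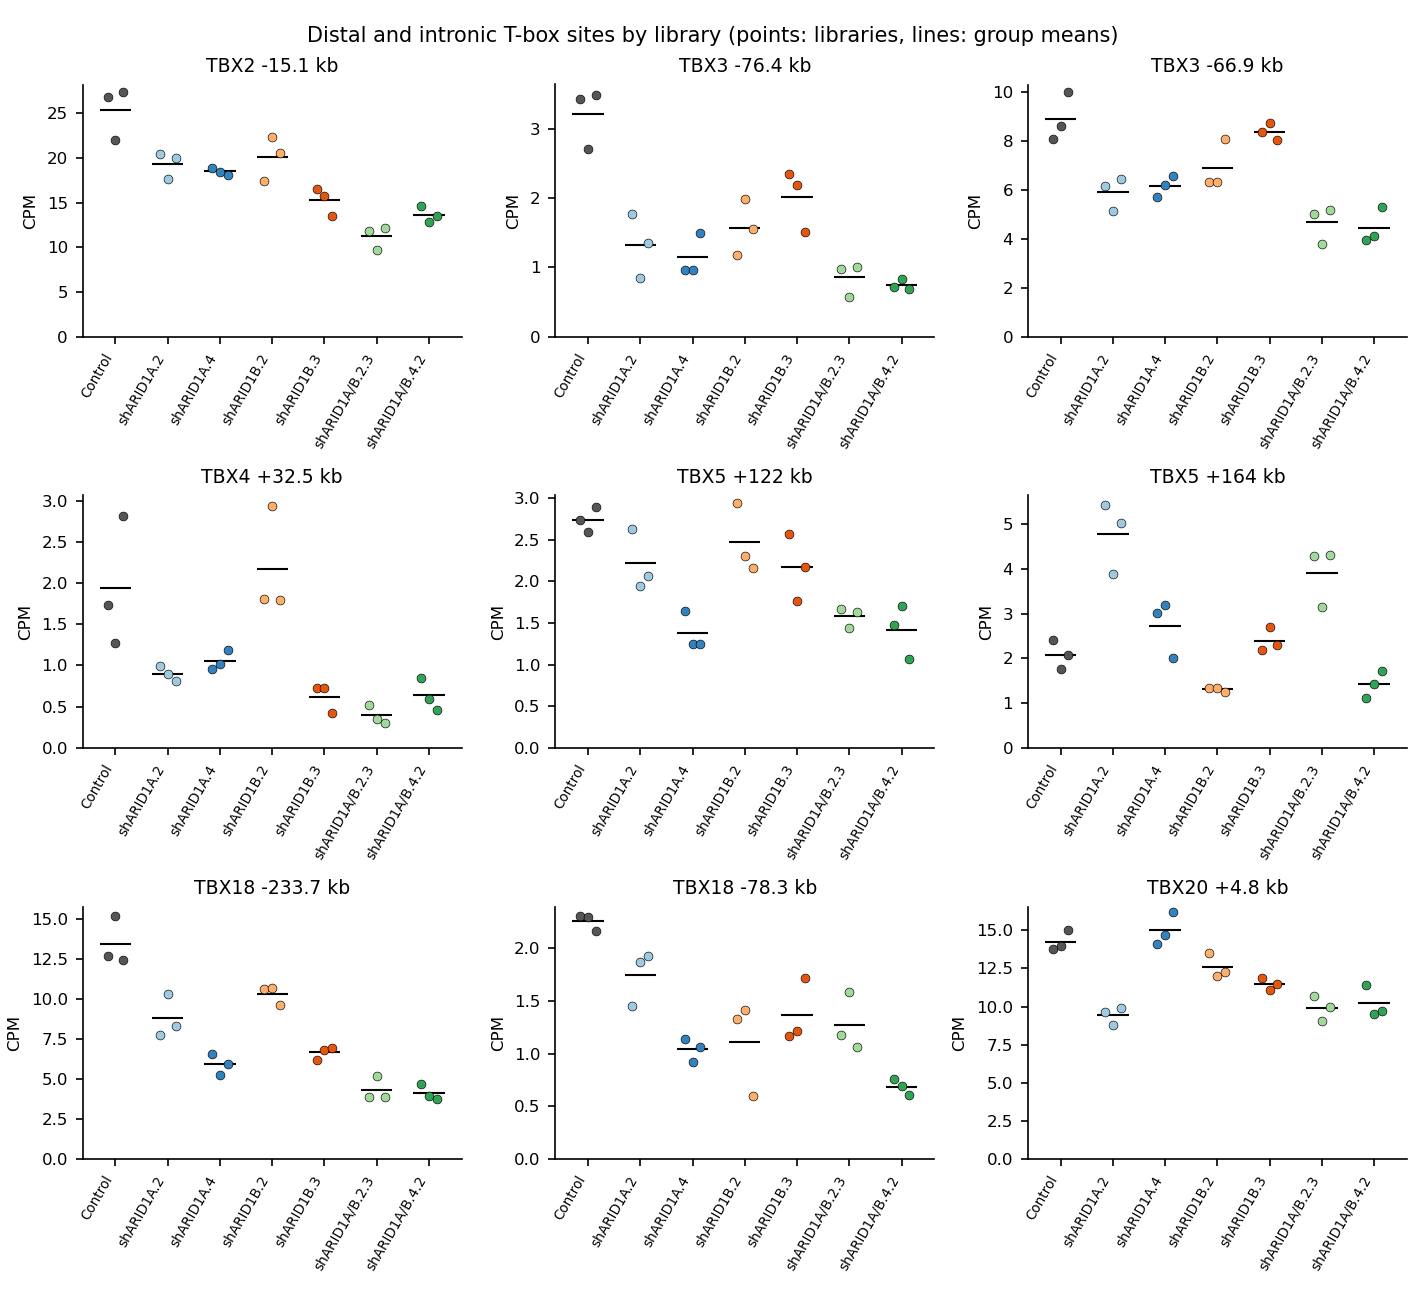
CPM (y axis) in each of the 21 libraries for 9 distal and intronic member sites, with points for libraries and lines for the means of the 7 groups on the x axis. At 8 of the 9 sites the combination libraries lie below Control, while 164 kb from TBX5 the shARID1A.2 and shARID1A/B.2.3 libraries lie at 3.16 to 5.43 CPM, above Control at 1.77 to 2.41. The 8 were picked as the falls with the smallest p-values after combined silencing, so their count adds no support. The site 164 kb from TBX5 was picked by the test between the combinations.

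Accessibility at the start sites was then compared between genes, per kb of site length. In Control, TBX3 (20.5 ± 1.78 CPM per kb, SD, n = 3) and TBX20 (19.5 ± 0.244) were highest and their libraries overlapped. TBX18 followed at 14.4 ± 0.111, then TBX2 at 6.4 ± 0.958. TBX5 (1.83 ± 0.225) and TBX4 (1.44 ± 0.535) were lowest and overlapped each other. Among 12310 tested promoter sites of all genes these levels stood at percentiles 86.9 for TBX3, 85.4 for TBX20, 76.2 for TBX18, 49.7 for TBX2, 21.5 for TBX5 and 15.2 for TBX4, around a median of 6.46 CPM per kb. The sites used for TBX18 and TBX5 are annotated as the first intron, 0.8 and 0.7 kb from the start in the authors' annotation. Those used for TBX4 and TBX5 do not cover the GENCODE start of their gene, so their low levels need not hold at that start.

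With TMM scaling, the 3 most accessible start sites rose slightly after combined silencing. TBX3 (chr12:114683872-114685513) gave 33.9, 30.7 and 36.6 CPM in Control, 38.9, 36.6 and 40.7 with shARID1A/B.2.3 and 46.5, 45.5 and 47.0 with shARID1A/B.4.2, a change of 0.33 (SE 0.08, FDR 6.63e-04). The lowest shARID1A/B.2.3 library exceeded the highest Control library by less than the rounding, and that combination alone was not called (0.20, FDR 0.109), while shARID1A/B.4.2 lay clear of Control (0.46, FDR 3.28e-05). TBX18 (chr6:84762509-84765061) gave 37.1, 36.7 and 36.6 CPM in Control and 42.7 to 51.3 CPM over the 6 combination libraries, a change of 0.34 (SE 0.07, FDR 1.12e-04). TBX20 (chr7:35253293-35254804) gave 29.9, 29.5 and 29.1 CPM in Control, 31.2, 31.2 and 28.3 with shARID1A/B.2.3 and 41.6, 42.2 and 39.8 with shARID1A/B.4.2. There the first combination overlapped Control and the second did not, with a difference between them of -0.44 (FDR 9.14e-05), and the averaged change of 0.26 (SE 0.08, FDR 0.00815) lost its call in 8 of 9 fits that left out 1 Control or combination library (FDR 0.0104 to 0.0487 in those 8).

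Under other scalings of the libraries these rises were not always called, and none was with promoter-site factors or with abundance-trended offsets. Library factors taken from promoter sites remove by construction a change that promoters share, so they show the start sites relative to other promoters. With them, the median change of all tested sites moved from 0.03 to -0.199, and the rises became 0.09 (FDR 0.289) at TBX3, 0.11 (FDR 0.233) at TBX18 and 0.02 (FDR 0.846) at TBX20. Without Control replicate 2 the TBX3 rise was 0.26 (FDR 0.0247). With abundance-trended offsets the 3 rises were 0.10, 0.11 and 0.08 (FDR 0.208, 0.202 and 0.423). Over the same scalings and DESeq2, the change 76.4 kb upstream of TBX3 stayed between -2.25 and -1.99, that 233.7 kb upstream of TBX18 between -1.89 and -1.54, and that 15.1 kb upstream of TBX2 between -1.27 and -1.03. The start sites of TBX4 (0.36 ± 0.134 CPM in Control, change 0.17, SE 0.36, FDR 0.81) and TBX5 (2.24 ± 0.277 CPM, change 0.10, SE 0.16, FDR 0.734) were not called and turned sign with promoter-site scaling (-0.06 and -0.13). The TBX4 value also turned without Control replicate 2 (-0.12).

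**Figure D3:**
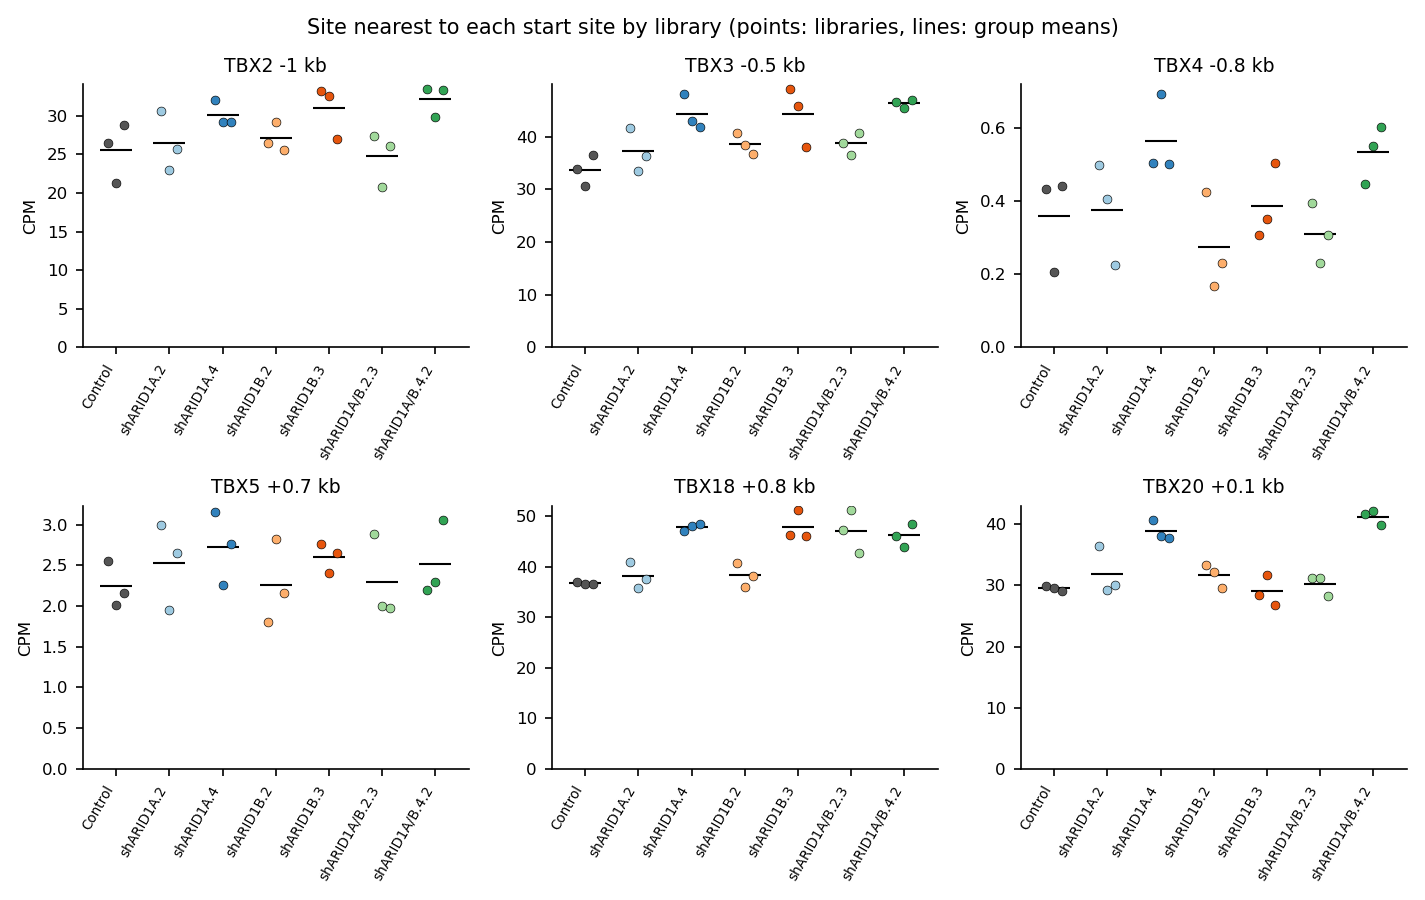
CPM (y axis) in each of the 21 libraries for the site nearest to each of the 6 start sites, with points for libraries and lines for group means. The TBX18 Control libraries lie at 36.6 to 37.1 CPM and its combination libraries at 42.7 to 51.3, while TBX4 does not exceed 0.693 CPM in any library.

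**Figure D4:**
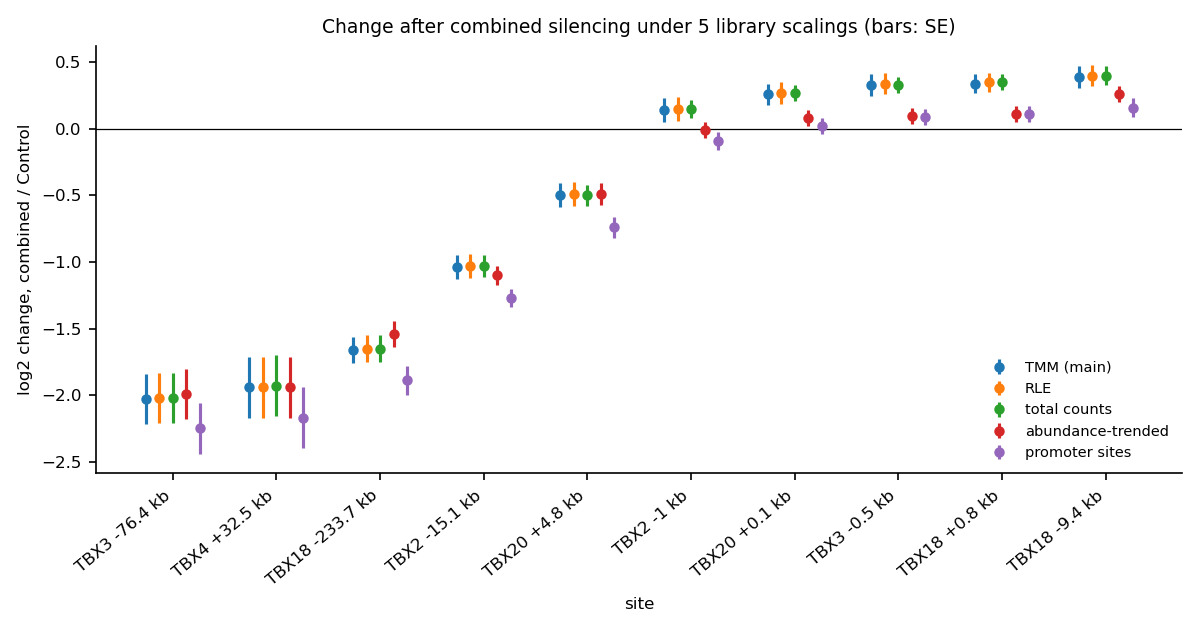
Log2 change after combined silencing (y axis, bars are SE) at 10 member sites (x axis) under 5 ways of scaling the libraries, in colours. The 5 falls keep their sign, while the rise at the TBX20 start goes from 0.26 to 0.02 with promoter-site scaling.

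Each combination was also tested alone. With shARID1A/B.2.3, 16 members closed and 3 opened (10.4% and 2.85% of all tested sites), and with shARID1A/B.4.2, 15 closed and 4 opened (7.37% and 3.97%). The combinations share the Control libraries. Deviations correlated between same-numbered libraries of Control and shARID1A/B.2.3, and also between their replicates 1 and 3. A fit of these 6 libraries with the number as a block closed 17 and opened 5 of 109 tested members. Without replicate 2 of shARID1A/B.2.3, that combination opened 1 member. Tested against each other, the combinations differed at 6 members, 5 lower and 1 higher in shARID1A/B.2.3 (3.79% and 1.43% of all tested sites).

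The effect of silencing a single subunit was tested next. ARID1A silencing, as the mean of its 2 shRNAs, closed 13 members and opened 2 (5.37% and 1.67% of all tested sites), and ARID1B silencing closed 5 and opened 1 (3.53% and 1.39%). The count opened by ARID1A silencing ran from 1 to 5 and that by ARID1B silencing from 0 to 1 when single libraries were left out. The count closed by ARID1A silencing fell to 6 without Control replicate 1, to 7 without shARID1A.4 replicate 2 and to 8 with DESeq2. ARID1B silencing closed the sites 15.1 kb upstream of TBX2, 76.4 kb upstream of TBX3 and 233.7, 90.5 and 78.3 kb upstream of TBX18, where ARID1A silencing changed accessibility by -0.42, -1.40, -0.90, -1.19 and -0.74 and ARID1B silencing by -0.53, -0.83, -0.70, -1.07 and -0.90. These comparisons share Control, and a site called in one and not in another is not thereby shown to differ.

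The shRNAs were also taken one at a time. shARID1A.2 closed 7 members and opened 1 (4.54% and 0.834% of all tested sites), and shARID1A.4 closed 12 and opened 4 (4.17% and 2.28%). shARID1B.2 closed 3 and opened 0 in edgeR (1.84% and 1.34%), with 4 higher at an unadjusted p under 0.05 (29594 of all 357029 tested sites), and shARID1B.3 closed 8 and opened 2 (4.88% and 3.12%). The ARID1A shRNAs differed from each other at 5 members, 3 lower and 2 higher with shARID1A.2 (1.84% and 0.737%). The ARID1B shRNAs differed at 9, 4 lower and 5 higher with shARID1B.2 (2.96% and 4.25%). The TBX18 start is an example, where shARID1A.4 (47.9 ± 0.792 CPM) and shARID1B.3 (47.9 ± 2.85) were higher than Control (36.8 ± 0.284), while shARID1A.2 (38.2 ± 2.63) and shARID1B.2 (38.3 ± 2.37) were not called (SD, n = 3 each).

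Over the 18 closed sites, combined silencing had a median log2 change of -0.95, ARID1A silencing of -0.56 and ARID1B silencing of -0.36. These sites were chosen by the combined change, which favours a large combined median. Over all 112 tested members the medians were 0.05, -0.03 and -0.07. At 15 of the 18 the ARID1A value was below the ARID1B value. This held at 49 of all 112 tested members and at 174991 of all 357029 tested sites. Its share over all closed sites was not counted. Tested directly, ARID1A and ARID1B silencing differed at 2 members, 1 in each direction (3.69% lower and 1.05% higher over all tested sites), namely 66.9 kb upstream of TBX3 and 164 kb downstream of the TBX5 start. The TBX20 start measured 0.21 (SE 0.06, FDR 0.0169) in the same comparison and did not pass. At the TBX5 site the shRNAs of each gene also differed from each other (0.77, FDR 0.000864 for ARID1A, and -0.89, FDR 0.000913 for ARID1B). At the TBX3 site shARID1B.2 lay below Control and shARID1B.3 overlapped it.

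Combined silencing gave lower accessibility than single silencing at 10 members and higher at none in edgeR or DESeq2 (6.85% and 0.969% of all tested sites). At an unadjusted p under 0.05, 21 were lower and 11 higher, beside 51110 lower and 35776 higher of all 357029 tested sites. The lower count was 3 without the 4 deepest libraries, a setting added after the data were seen. The clearest were 233.7 kb upstream of TBX18 (-0.86, SE 0.08, FDR 4.25e-14), 15.1 kb upstream of TBX2 and 66.9 kb upstream of TBX3 (-0.58, SE 0.08, FDR 4.57e-08). The combined change was also set against the summed changes of both single silencings, and the difference was called at 0 of 112 members in edgeR (0.376% of all tested sites lower and 0.14% higher). At an unadjusted p under 0.05, 4 members were lower and 4 higher, beside 26674 and 22337 of all 357029 tested sites. The median of the summed single changes at closed sites was -0.88, beside -0.95 for the combined change, by which these sites were chosen. The 3 smallest p-values in that test belonged to the sites 15.2 kb downstream of the TBX3 start (-0.37, SE 0.12, FDR 0.114), 90.5 kb upstream of TBX18 (0.91, SE 0.31, FDR 0.133) and 21.4 kb downstream of the TBX3 start (-0.55, SE 0.20, FDR 0.154), and none passed. At the TBX18 site each single silencing (-1.19 and -1.07) came close to the combined fall of -1.35.

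Related genes were counted in the same way after combined silencing. The other T-box genes had 17 closed and 3 opened of 197 tested sites (8.63% and 1.52%, median 0.13), of which TBX15 alone supplied 100 sites with 2 closed. Closed sites were 3 of 7 at TBX22, 3 of 11 at EOMES, 3 of 22 at TBR1 and 3 of 21 at T (brachyury). The neighbours and antisense genes of the loci had 4 closed and 3 opened of 43 sites, with 0 closed and 0 opened of the 10 sites of TBX5-AS1. Factors of the adrenergic circuit in which TBX2 takes part had 47 closed and 9 opened of 299 sites (15.7% and 3.01%). Among them, TFAP2B had 13 closed and 2 opened of 69 sites, and ISL1 had 5 closed of 23. GATA3 had 2 closed of 18, MYCN 4 of 29, PHOX2A 1 of 14 with 1 opened, and HAND2 0 of 1. Known repression targets of TBX2 and TBX3 had 10 closed and 2 opened of 69 sites, and the single site of CDKN1A, the gene of p21, closed by -0.33. Cardiac partners of TBX5 and TBX20 had 3 closed and 2 opened of 59 sites, with 0 of 11 for NKX2-5 and 0 of 11 for GATA4. The background for all of these is 10.3% closed and 3.43% opened.

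The promoter sites most like the TBX2 start site in their course over the 21 libraries, among 9768 with at least 2 CPM, were those of UBN1 (Pearson r 0.952), C16orf86 (0.933), AC005592.2 (0.933), FOS (0.932) and RP5-1021I20.1 (0.931). The points share libraries, depth and scaling, so these values only describe likeness.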

How the data were processed

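ATAC-seq was read in 21 libraries, 3 biological replicates of each of 7 groups, all of 1 cell line. Per the labels, the authors aligned reads to GRCh38 and used DESeq2. Per the file headers, the deposited counts are raw reads per library at consensus sites called on merged replicates, and HOMER gave each site its nearest gene and class. The sources used here do not name the aligner, the peak caller, the read filters or any Tn5 offset. Sites found on merged replicates of several groups can be weak or closed in a given group, and reads placed by the aligner on repeats move the counts. The authors' normalized values, log2 ratios and adjusted p-values were not used.

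Counts were fitted in edgeR 4.0.16 (R 4.3.3, limma 3.58.1) with TMM factors, filterByExpr at a minimum count of 10, which removed 10871 of 367900 sites, and 1 quasi-likelihood model over all 21 libraries. Contrasts were tested at a Benjamini-Hochberg FDR under 0.01 over all tested sites. The SE is the log2 change divided by the square root of F. DESeq2 1.42.0, other scalings, no filter, the replicate number as a block, only the groups compared, other thresholds and leaving out each library were tried as alternatives, and the script was tested on simulated data. Libraries held 16140029 to 44472230 reads in sites, and the common biological coefficient of variation was 0.082, so weak sites carry wide errors. Windows of 300 bases at the site centres were read from the GRCh38 reference, and Python 3.11.15 with pandas 2.3.3 and numpy 2.4.6 made the tables. Sites named singly were those nearest to each start, the strongest in Control, those with the smallest p-value per gene, the largest falls and rises, and the smallest p-values for ARID1A against ARID1B and for departure from the sum. Sites named beyond these were the remaining closed, opened or shRNA-dependent ones. Deviations of same-numbered replicates correlated in Control and shARID1A/B.2.3 (0.252 to 0.591) and in Control and shARID1A.2 (0.103 to 0.392). Some differently numbered ones did too. Control replicate 3 reached 0.316 with replicate 1 of shARID1A/B.2.3 and 0.194 with replicate 1 of shARID1A.2. The block by number thus comes from the data and not from the labels, and a pairing by number is not shown. Members, gene lists and motifs were chosen with earlier results of these data known. Some genes of these lists are not reported here.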

Additional observations from a re-analysis of the deposited data

Results flagged for a closer look

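Tests of shRNAs against the same gene or gene pair differed at several T-box sites (edgeR quasi-likelihood test of the difference, FDR under 0.01). Between shARID1A/B.2.3 and shARID1A/B.4.2, the first was lower 1 kb upstream of TBX2 (-0.38), 167.2 kb downstream of the TBX5 start (-1.32), 118.5 kb upstream of TBX18 (-0.72), at the TBX20 start (-0.44) and 26.5 kb downstream of it (-1.0), and higher 164 kb downstream of the TBX5 start (1.44).

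Between shARID1A.2 and shARID1A.4, the first was lower 11.5 kb downstream of the TBX3 start (-0.49), at the TBX18 start (-0.33) and 4.8 kb downstream of the TBX20 start (-0.66). It was higher 164 kb downstream of the TBX5 start (0.77) and 233.7 kb upstream of TBX18 (0.57).

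Between shARID1B.2 and shARID1B.3, the first was lower 2.7 kb (-0.72) and 164 kb (-0.89) downstream of the TBX5 start, at the TBX18 start (-0.32) and 36 kb downstream of it (-0.81). It was higher 15.1 kb upstream of TBX2 (0.39), 32.5 kb downstream of the TBX4 start (1.72), 233.7 kb (0.63) and 118.5 kb (1.33) upstream of TBX18, and 26.5 kb downstream of the TBX20 start (0.93). How far each shRNA lowered its target was not measured in these files, and its part in these differences was not tested.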

How the results depend on the processing

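For single named sites, 342 values under the alternatives stayed on the same side of the threshold, 18 lost the call and none of the called ones reversed. Counts below are of the 112 tested members, closed then opened. With a log2 change of at least 1 as well, combined silencing gave 8 and 0, shARID1A/B.2.3 9 and 0, shARID1A/B.4.2 8 and 0, ARID1A silencing 3 and 0, ARID1B silencing 1 and 0, and the combinations were below single silencing at 1. At an FDR under 0.05, ARID1A silencing opened 6, ARID1B silencing closed 8 and opened 2, and the combinations were above single silencing at 2. With library factors from promoter sites, combined silencing opened 0, shARID1A/B.2.3 opened 1, shARID1A/B.4.2 closed 25 and opened 0, ARID1A silencing opened 1, and ARID1B silencing closed 12 and opened 0. With abundance-trended offsets, combined silencing opened 1, shARID1A/B.4.2 0, ARID1A silencing 1 and ARID1B silencing 0. For ARID1A silencing, DESeq2 closed 8, and the opened count was 4 with RLE factors, 5 with total counts, 5 without the filter and 1 within 100 kb of the TSS. Without the 4 deepest libraries, an alternative added after the data were seen, combined silencing opened 2, shARID1A/B.2.3 closed 8 and opened 1, ARID1A silencing opened 4, ARID1B silencing opened 0, and the combinations were below single silencing at 3.

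The labels give every group replicates 1 to 3. Over 63 pairs of libraries with the same number, 21 had correlated deviations over 0.1 (range -0.397 to 0.591), and 13 of 21 libraries correlated best with their own number. All 3 pairs were over 0.1 for Control with shARID1A/B.2.3, Control with shARID1A.2 and shARID1A.2 with shARID1A/B.2.3, and not for the other group pairs. Replicates 1 and 3 of Control and shARID1A/B.2.3 also correlated across numbers (0.207 and 0.316). With the replicate block over all groups, ARID1A silencing opened 5 members, and the other counts stayed within 1.5 times those without the block. With the block and only the groups compared, added after the data were seen, shARID1A/B.2.3 closed 17 and opened 5, and shARID1A.2 closed 7 and opened 2.

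Leaving out each library in turn, combined silencing closed 16 to 18 and opened 2 to 4 (2 without Control replicate 2), shARID1A/B.2.3 closed 14 to 15 and opened 1 to 3 (1 without its replicate 2), and shARID1A/B.4.2 closed 12 to 15 and opened 3 to 4. ARID1A silencing closed 6 to 12 (6 without Control replicate 1, 7 without shARID1A.4 replicate 2) and opened 1 to 5, with 1 without Control replicate 2, shARID1A.2 replicate 1 or 3 or shARID1A.4 replicate 1, and 5 without shARID1A.2 replicate 2. ARID1B silencing closed 5 to 6 and opened 0 to 1, with 0 without Control replicate 1 or 2 or replicate 1 or 2 of either ARID1B shRNA. The combinations were below single silencing at 7 to 11 members and above at 0 to 1 (1 without shARID1A/B.2.3 replicate 3). At sites under 2 CPM in Control, depth limits what can be detected.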
